A study of Mus musculus with 6 samples.

Results

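The 5 genes described here, Dbp, Tef, Hlf, Nfil3 and Bhlhe41, encode transcription factors of the circadian clock's output, and their messenger RNA was measured in mouse star pyramid neurons. These are excitatory cells of the visual cortex that lie in layer 4, its main input layer. The 5 genes were selected by gene symbol, and chosen from earlier results of these data: the values that chose them are the differences between the deprived and the non-deprived arrays, so these differences are given as a description, with no test. Each of the 5 had 1 transcript cluster with that symbol alone, out of 14859 genes with such a cluster. The mice were 14 days old and all of them had been subjected to monocular deprivation, an injection of tetrodotoxin (TTX, a blocker of voltage-gated sodium channels) given at postnatal day 12 to 13 and repeated at day 13 to 14. Neurons carrying the fluorescent protein m-Citrin were picked by hand from the deprived hemispheres (3 arrays) and from the non-deprived hemispheres (3 arrays) of such animals, and no animals without deprivation are in the data. The strain, the driver of m-Citrin and the number of mice behind an array are not stated in the labels. The time of day of collection was not used here, and its part in the levels of these genes was not tested. The letter behind the replicate number is l for every non-deprived and r for every deprived array, so a side of the brain, if that is its meaning, cannot be told apart from deprivation.

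The PAR bZIP factors, named for a domain rich in proline and acidic amino acids beside a basic leucine zipper, are DBP, TEF and HLF. They bind as dimers to a DNA element called the D-box and activate transcription there, and their own levels follow the clock in many tissues, Dbp most strongly of them. NFIL3, also called E4BP4, is a bZIP protein that binds the same element and represses. BHLHE41, also called DEC2, is a basic helix-loop-helix repressor that acts at E-boxes, the element through which CLOCK and BMAL1 drive Dbp and the Per genes. Mice that lack DBP, TEF and HLF together have epileptic seizures, and their brains contain less pyridoxal kinase (Pdxk), the enzyme that makes the active form of vitamin B6.

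The promoter windows of these genes show how the clock elements named above are distributed among them. RefSeq windows of build GRCm38.p6, from 250 bases before to 50 bases after each annotated start, were found for all 5 genes, with a pair of starts for Tef. They were searched on both strands for the E-box CACGTG, the D-box as TTATGTAA or TTACGTAA, the ROR element TAGGTCA and the cyclic AMP response element (CRE) TGACGTCA, none of which contains another. The windows with a match are printed first, 5′ to 3′ on the strand of the gene and with the match in capitals, followed by the window of Dbp, the member with the widest gap between the groups.
Tef, first start, chr15:81802423-81802722, + strand: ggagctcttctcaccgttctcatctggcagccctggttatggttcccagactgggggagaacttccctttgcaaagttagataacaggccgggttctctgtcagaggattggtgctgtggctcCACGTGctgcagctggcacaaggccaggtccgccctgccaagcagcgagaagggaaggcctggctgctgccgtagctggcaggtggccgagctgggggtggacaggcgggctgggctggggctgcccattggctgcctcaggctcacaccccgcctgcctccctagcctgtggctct
Tef, second start, chr15:81811164-81811463, + strand: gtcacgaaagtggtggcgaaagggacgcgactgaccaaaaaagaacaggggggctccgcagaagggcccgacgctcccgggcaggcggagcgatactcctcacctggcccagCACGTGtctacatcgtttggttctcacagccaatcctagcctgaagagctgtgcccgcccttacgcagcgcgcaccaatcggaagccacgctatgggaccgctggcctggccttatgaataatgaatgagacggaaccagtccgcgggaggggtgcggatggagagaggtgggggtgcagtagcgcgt
Bhlhe41, chr6:145865371-145865670, − strand: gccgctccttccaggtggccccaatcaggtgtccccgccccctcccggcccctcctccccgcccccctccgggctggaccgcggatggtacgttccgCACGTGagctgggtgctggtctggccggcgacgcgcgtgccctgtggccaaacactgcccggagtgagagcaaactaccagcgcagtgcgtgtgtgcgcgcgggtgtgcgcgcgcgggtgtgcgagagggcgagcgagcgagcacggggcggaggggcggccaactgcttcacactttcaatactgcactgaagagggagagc
Hlf, chr11:90390868-90391167, − strand: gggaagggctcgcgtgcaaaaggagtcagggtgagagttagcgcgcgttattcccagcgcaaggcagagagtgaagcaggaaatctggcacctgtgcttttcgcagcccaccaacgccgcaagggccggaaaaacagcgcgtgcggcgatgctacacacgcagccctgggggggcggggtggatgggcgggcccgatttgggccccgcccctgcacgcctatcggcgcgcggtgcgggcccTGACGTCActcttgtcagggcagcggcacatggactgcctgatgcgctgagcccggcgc
Nfil3, chr13:52980990-52981289, − strand: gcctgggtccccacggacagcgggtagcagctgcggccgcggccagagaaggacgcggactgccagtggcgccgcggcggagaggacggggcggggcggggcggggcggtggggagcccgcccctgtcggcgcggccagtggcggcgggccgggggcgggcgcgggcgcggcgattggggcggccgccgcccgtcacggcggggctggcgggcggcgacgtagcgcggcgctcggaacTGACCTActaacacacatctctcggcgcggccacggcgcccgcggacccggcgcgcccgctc
Dbp, chr7:45704997-45705296, + strand: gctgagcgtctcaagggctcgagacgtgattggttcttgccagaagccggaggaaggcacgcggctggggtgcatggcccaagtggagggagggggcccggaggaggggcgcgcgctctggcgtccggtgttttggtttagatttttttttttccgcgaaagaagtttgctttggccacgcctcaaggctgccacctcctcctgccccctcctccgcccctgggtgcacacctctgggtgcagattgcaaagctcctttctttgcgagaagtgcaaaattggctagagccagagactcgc

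The E-box stood in both windows of Tef, 127 and 138 bases before the start, and in that of Bhlhe41, 153 bases before it. Of all 32851 RefSeq windows, 7.15% held this E-box. The window of Hlf had a CRE 9 bases before the start, an element found in 1.79% of windows. Nfil3 had a ROR element, on the opposite strand, beginning 12 bases before the start (2.61% of windows). No window of the 5 genes held either D-box, and the window of Dbp had none of the searched letters. Among the clock genes described below, Per3 had the D-box TTATGTAA (0.938% of windows; TTACGTAA was in 0.119%) at 205 and 158 bases before its start, and Per1 and Cry1 an E-box at 166 and 60 bases. Timeless, one of the other clock regulators counted but not named below, had TTATGTAA 157 bases before its start. Nr1i3 had an E-box 244 bases before its start, and Dusp1 an E-box and a CRE at 126 and 143 bases. Pdxk had an E-box 180 bases before its start, and Arntl, which encodes BMAL1, a ROR element 30 bases after it. A match describes these letters only.

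**Figure D1:**
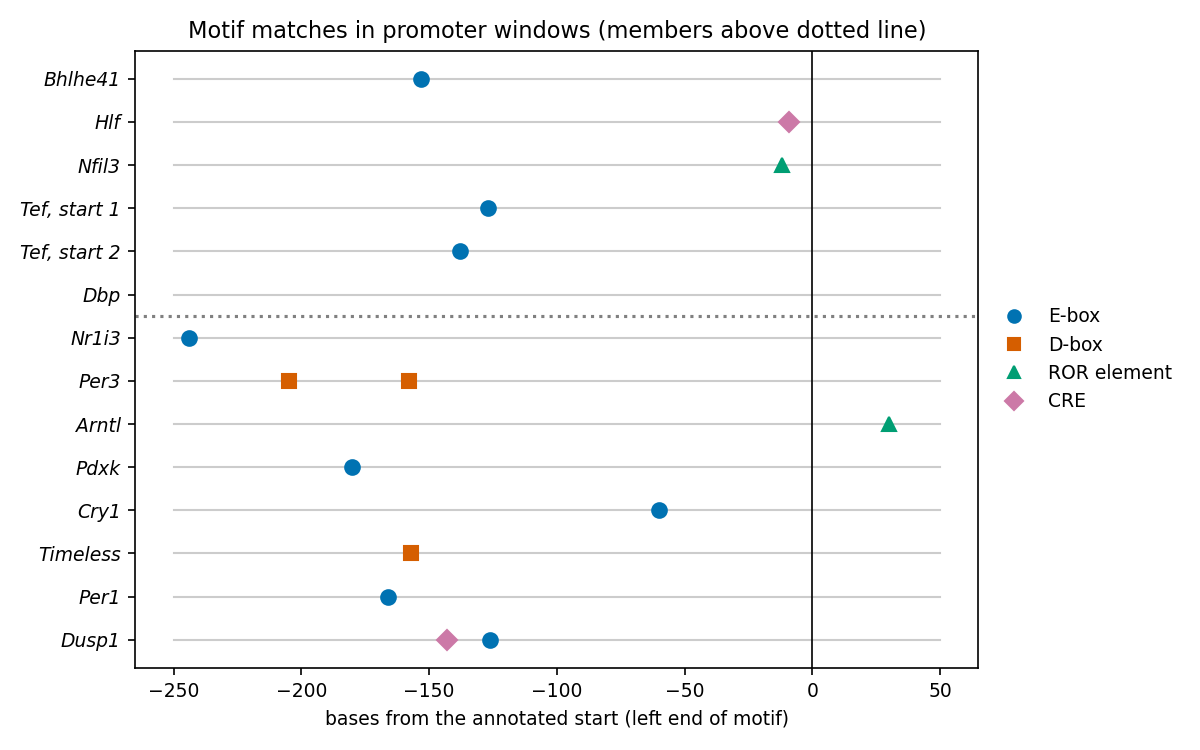
Positions of motif matches in the promoter windows of the 5 members (above the dotted line) and of the other clock and related genes with a match (below it), in bases from the annotated start, where each marker is the left end of 1 match. The E-box of Tef lies at 127 and 138 bases before its starts, and Dbp has no match.

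Each array gave 1 log2 value per gene. Array medians over the 14859 genes were between 5.37 and 5.73, and the non-deprived group held 2 arrays unlike the rest: its arrays 2 and 3 had 2769 and 2900 genes above a log2 value of 7, the remaining 4 arrays 3727 to 3960. The number of arrays limits the precision, and the p-values of the fit measure only the spread between these samples, since the labels do not say whether those of a group came from separate animals. Slc17a7, the vesicular glutamate transporter of cortical excitatory neurons, was at 8.92 to 9.44 in the non-deprived and 9.92 to 10.35 in the deprived arrays, and Rorb, a layer 4 marker, between 6.83 and 8.57. Sst, the somatostatin precursor of a class of interneurons, read between 10.08 and 11.59 on all 6 arrays, and its value was singled out after it was seen. Of 834 olfactory, vomeronasal and taste receptor genes, of which few are expected in cortex, the 95th percentile of the values was 5.53. Probes differ in brightness, so this gives only a rough idea of what a silent gene reads. All 6 arrays of Dbp, Tef, Hlf and Nfil3 were above it, but 1 of the 6 of Bhlhe41.

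Dbp, Tef and Hlf were all higher in the deprived arrays. Dbp differed by 1.06 on the log2 scale, Tef by 0.52 and Hlf by 0.46, where the median over all genes was 0.05. Over the 7431 genes at or above the median of mean expression, the median difference was 0.227. Of the repressors, Bhlhe41 was higher by 1.14, and Nfil3 had nearly equal means that differed by -0.05. The deprived values of Dbp, Tef, Hlf and Bhlhe41, 4 of the 5 genes, lay entirely above the non-deprived ones, as did those of 936 of the 14859 genes (6.3%). None of the 5 lay entirely below them, as 599 genes (4.03%) did. Since this contrast chose the genes, their count carries no weight against that background. Limma, a linear model fitted gene by gene with a moderated variance, found no gene past an adjusted p of 0.05 (0 of 14859, 0%). The smallest adjusted p in that fit was 0.689, while 775 genes had an unadjusted p under 0.05. In RNA of pooled cells, a different make-up of the cells and a different amount of the transcript per cell cannot be told apart.

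**Figure D2:**
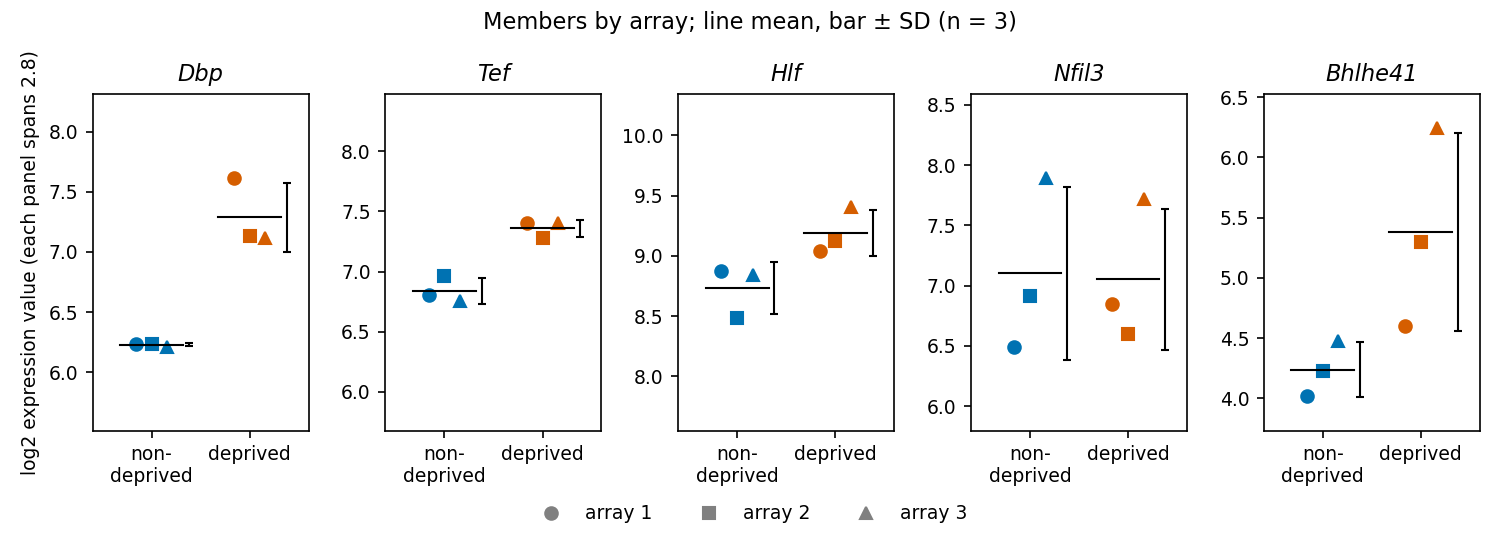
Log2 expression values of the 5 genes on each of the 3 non-deprived (blue) and 3 deprived (orange) arrays, with the mean as a line and ± SD as a bar, every panel spanning the same log2 range. Dbp lies between 6.22 and 6.24 on the non-deprived arrays and at 7.11 or above on the deprived ones, while Nfil3 is highest on array 3 of both groups.

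Dbp (transcript cluster 6960404), the most strongly rhythmic of the PAR bZIP activators, read 6.24, 6.24 and 6.22 on non-deprived arrays 1 to 3 and 7.62, 7.13 and 7.11 on deprived arrays 1 to 3. The non-deprived arrays were close to identical as deposited, and the lowest deprived array was 0.875 above the highest of them. After median centring the non-deprived arrays read 6.12, 6.43 and 6.38 (gap 0.519), and after quantile normalization 6.06, 6.67 and 6.51 (gap 0.198). As deposited, the means were 6.23 ± 0.01 in the non-deprived and 7.29 ± 0.29 in the deprived group (SD, n = 3 arrays each), a 2.08-fold difference. The difference between arrays of the same number was 1.38, 0.89 and 0.90. On deprived array 1, the highest for Dbp, the log2 values of the 7 astrocyte markers summed to 39.3, against 34.9 to 35.8 on the other 5 arrays. It was the highest array for 4 of the 7 (Aqp4, Slc1a3, Aldh1l1 and Gja1) and the lowest for Gfap (4.75) and S100b (4.19). Without that array the difference of Dbp was 0.89. It was 1.05 without non-deprived arrays 2 and 3.

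Tef (cluster 6832132), the PAR bZIP factor first described in the pituitary as thyrotroph embryonic factor, read 6.80, 6.96 and 6.76 on the non-deprived arrays and 7.40, 7.28 and 7.40 on the deprived arrays. The groups did not overlap and were 0.316 apart at their nearest values. Their means were 6.84 ± 0.11 and 7.36 ± 0.07 (SD, n = 3 each), a 1.43-fold difference. Each of its windows printed above holds an E-box. Its pooled spread within groups as deposited, an SD of 0.0915, was smaller than that of most genes: 3.14% of the 14859 had a smaller one. After quantile normalization its non-deprived arrays read 6.61, 7.40 and 7.10.

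Hlf (cluster 6790699), hepatic leukaemia factor, the PAR bZIP factor known from a fusion gene of human leukaemia, read 8.88, 8.49 and 8.84 on the non-deprived and 9.04, 9.12 and 9.41 on the deprived arrays. Non-deprived arrays 1 and 3 were close to deprived array 1, and the gap between the groups was 0.166. The means were 8.73 ± 0.22 and 9.19 ± 0.19 (SD, n = 3 each), a 1.37-fold difference.

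Bhlhe41 (cluster 6958256), the E-box repressor, read 4.02, 4.22 and 4.48 on the non-deprived and 4.60, 5.29 and 6.25 on the deprived arrays. It had the widest range of the 5 genes over the arrays, 2.23, and the narrowest gap between the groups, 0.126. The deprived array 3 alone was above the level that 95% of the silent receptor values stayed under. The means were 4.24 ± 0.23 and 5.38 ± 0.82 (SD, n = 3 each), and without deprived array 3 the difference was 0.71 in place of 1.14.

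Nfil3 (cluster 6813246), the repressor at D-boxes, read 6.49, 6.91 and 7.90 on the non-deprived and 6.84, 6.60 and 7.72 on the deprived arrays. The groups overlapped, and array 3 was the highest of each. The means were 7.10 ± 0.72 and 7.05 ± 0.59 (SD, n = 3 each). The sign of the difference depended on which arrays were used, with -0.38 when deprived array 3 was left out, 0.35 when non-deprived array 3 was, and 0.56 with neither of the non-deprived arrays 2 and 3. The arrays numbered 3 also had the lowest values of the Y-linked gene Eif2s3y, 2.81 in the non-deprived and 2.33 in the deprived group, against 6.76 to 8.51 on the other 4 arrays. The part of the animals' sex in the level of Nfil3 was not tested.

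**Figure D3:**
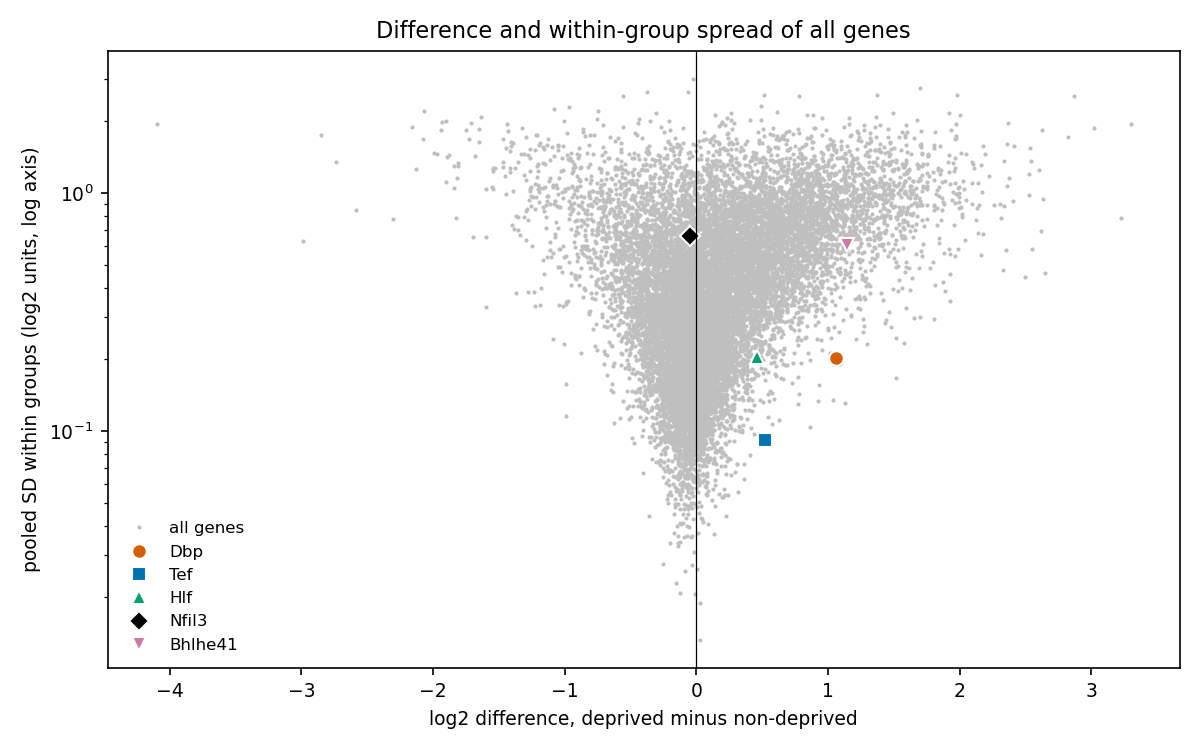
Log2 difference (deprived minus non-deprived, horizontal axis) against the pooled SD within groups (vertical log axis) for all 14859 genes in grey and the 5 members in colour. As deposited, Tef, Dbp and Hlf have differences of 0.52, 1.06 and 0.46 and an SD of 0.0915, 0.202 and 0.204. Nfil3 and Bhlhe41 have an SD of 0.656 and 0.606.

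The scaling of the arrays moved these differences. The array medians averaged 5.64 (deprived) and 5.48 (non-deprived), although that of non-deprived array 1 (5.68) was above those of deprived arrays 1 and 2 (5.58 and 5.61), and non-deprived arrays 2 and 3 had the lowest. Centring every array on its median lowered each difference by 0.159, which brought the median of all genes to -0.11. Centred in this way, Dbp differed by 0.90, Tef by 0.36, Hlf by 0.30 and Bhlhe41 by 0.98. Relative to the median of all genes they were unchanged, at 1.01, 0.47, 0.41 and 1.09. Deprived array 1 of Bhlhe41 (4.58) then lay below non-deprived array 3 (4.64), and the gap of Hlf was 0.017. Quantile normalization, which gives all arrays the same distribution of values, moved Dbp to 0.67, Hlf to 0.27 and Bhlhe41 to 1.06. The difference of Tef was 0.12, with 6.61, 7.40 and 7.10 on the non-deprived arrays and at most 7.27 on the deprived arrays, so that its groups overlapped. Those of Hlf overlapped as well, while Dbp (gap 0.198) and Bhlhe41 (gap 0.080) did not. The median of all genes was -0.06 after this step, and relative to it Tef was at 0.18, Hlf at 0.32 and Dbp at 0.73. Among the 7431 genes at or above the median of mean expression, the median difference as deposited was 0.227. Relative to that, Dbp was at 0.83, Tef at 0.29, Hlf at 0.23 and Nfil3 at -0.275. Dbp differed by at least 0.67 under each of the settings tried. Bhlhe41 differed by at least 0.71 in those that kept it, but the filter at the median of mean expression removed it. Only 1 of its 6 arrays was above the level of the silent receptors.

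**Figure D4:**
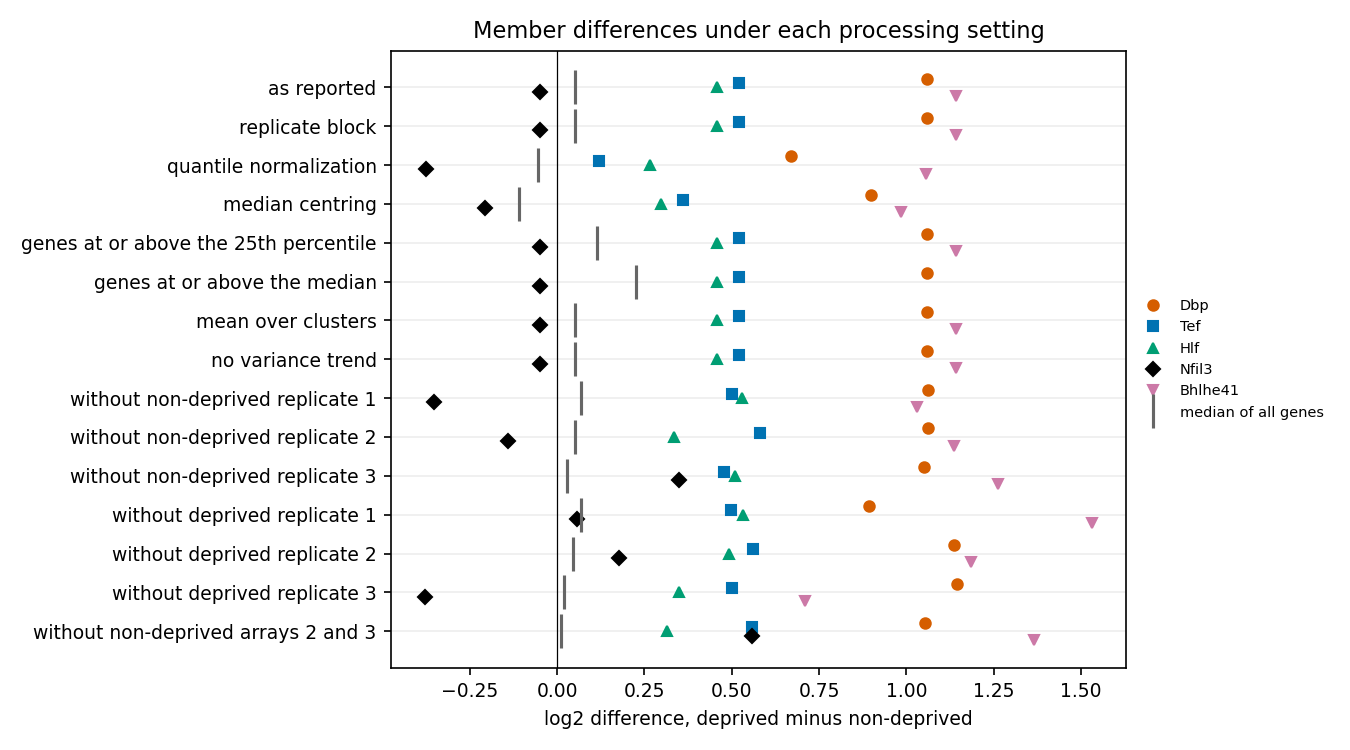
Log2 difference between the deprived and non-deprived arrays (horizontal axis) of the 5 genes under each processing setting (rows), with the median of all genes as a grey bar. Dbp lies between 0.67 and 1.14 throughout, Tef between 0.12 and 0.58, and the points of Nfil3 fall on both sides of 0.

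Markers of cell types were read on the same arrays. Of the 8 excitatory markers measured, 7 were higher in the deprived arrays, under both scalings as well, and Nrn1 differed by -0.58. For 3 of the 8 the deprived values lay entirely above (6.3% of all genes), and limma called 0. The log2 values of the 8 summed to 58.7 to 63.0 on the non-deprived and 66.8 to 67.3 on the deprived arrays. Of the 9 interneuron markers 6 were higher, or 5 after median centring, and they summed to 54.8 to 62.7 and 59.5 to 65.1. As deposited, 5 of 7 astrocyte, 4 of 7 oligodendrocyte, 2 of 8 microglia and 6 of 7 endothelium markers were higher. Markers of oligodendrocytes (37.6 to 40.2 and 38.2 to 40.4 over 7 genes), microglia (39.2 to 40.9 and 39.3 to 40.9 over 8) and endothelium (30.1 to 30.4 and 30.1 to 31.0 over 7) overlapped between the groups, as did those of astrocytes (35.0 to 35.7 and 34.9 to 39.3 over 7). The part of cell make-up in the levels of Dbp, Tef, Hlf and Bhlhe41 was not tested.

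The other genes of the pathway were taken from lists grouped by the element that drives them or by family, 39 measured genes in all besides the 5. The deprived mean was the higher for 25 and the lower for 14 of them, with a median difference of 0.095, and limma called 0 of them. After quantile normalization or median centring 17 were higher and 22 lower, with medians of -0.087 and -0.06. At an unadjusted p under 0.05 there were 2, Alas1 and Pdxk (5.13%, against 5.22% of all genes), and in 0 genes were the groups apart in either direction. Over all genes, 56.3% were higher, and 43.4% and 38.4% after these scalings. Of the 31 named singly below, leaving out 1 array turned the sign of 18 and moved 30 by over 1.5 times or through 0, all but Alas1. For 7 of the 39 all 6 arrays read under the 5.53 of the silent receptors, namely Fbxl21, Arntl2, Nr1i3, Cyp7a1, Cebpb, Cebpe and Hey2, a level that genes taken as silent also read.

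Genes that the clock drives through E-boxes, as it does Dbp, were measured at 4 of the 7 listed, and the others are not analysed here. Per1, a core repressor of the clock, was at 6.52 ± 0.63 in the non-deprived and 6.99 ± 0.52 in the deprived arrays (SD, n = 3 each), a difference of 0.48 ± 0.45 (SE; adjusted p = 0.880 in limma). Without non-deprived array 2 it was 0.12. Nr1d2, the nuclear receptor REV-ERB beta, differed by 0.39 ± 0.38, Cry1 by 0.38 ± 0.49 and Bhlhe40, the close relative of Bhlhe41, by -0.01 ± 0.36 (SE each). Cry1 turned to -0.14 without deprived array 3, and Nr1d2 was at 0.13 without deprived array 2. The median of the 4 was 0.38, or 0.10 after quantile normalization, 0.23 after median centring and 0.17 without deprived array 2. Bhlhe40 read 5.52 to 6.73 on the non-deprived and 5.84 to 6.13 on the deprived arrays, so that its groups overlapped. Bhlhe41 was chosen on this contrast and its groups overlapped after median centring, so no comparison between these relatives is drawn.

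Genes with D-boxes in their control regions, on which the PAR bZIP proteins and NFIL3 act, were measured at 5 of 7, and all 5 had higher means in the deprived arrays (median 0.39), but 4 of 5 after quantile normalization (median 0.13) and after median centring (0.23), where Per3 was lower. None was called by limma, and 0 were at an unadjusted p under 0.05. Besides Per1 and Nr1d2, they were Rora and Rorb, nuclear receptors that act at ROR elements (0.37 ± 0.53 and 0.40 ± 0.51, SE), and Per3 (0.10), whose window holds the D-box found at 205 and 158 bases. Only 1 of the 5 windows, that of Per3, held the searched D-box. Per3 read 5.49, 5.47 and 6.37 on the non-deprived and 5.69, 5.97 and 5.95 on the deprived arrays, with non-deprived array 3 the highest of all. The signs of Rora and Rorb turned when 1 array was left out, Rora to -0.09 with deprived array 3 omitted and Rorb to -0.03 with non-deprived array 3 omitted. Rorb is also one of the excitatory markers above.

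Genes driven through ROR elements, as Nfil3 is, were measured at 4 of 5, and 2 were higher and 2 lower (median 0.08, turning to -0.15 after quantile normalization and -0.08 after median centring). Arntl differed by 0.37 ± 0.59 (SE), or -0.74 if non-deprived arrays 2 and 3 were omitted, and Cry1 by 0.38, with the sign turn given above, whereas Npas2 and Clock, the partners of BMAL1, differed by -0.34 ± 0.32 and -0.20 ± 0.39 (SE; adjusted p of 0.880 for Npas2 and 0.947 for Clock in limma). The differences of the remaining clock regulators had a median of 0.16 over 6 genes, -0.07 after quantile normalization and -0.003 after median centring. Csnk1d, a kinase of the PER proteins, differed by 1.01 ± 0.80 (SE). That value was 0.13 once non-deprived array 2 was left out, and -0.41 once array 3 was omitted too. Fbxl21, a ligase subunit acting on CRY proteins, read 3.51 to 3.75 on the non-deprived and 3.58 to 5.48 on the deprived arrays, all under the level of the silent receptors, so no difference is given for it or for Arntl2. Usp2 differed by -0.62 ± 0.85 (SE), or 0.11 if non-deprived array 3 was omitted and 0.08 if deprived array 2 was.

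Known output genes of the PAR bZIP factors in mouse were measured at 4 of 7, 2 higher and 2 lower (median 0.54), or 3 higher after quantile normalization. Of the 3 with a promoter window, 0 held the searched D-box. Pdxk read 7.24, 5.29 and 6.49 on the non-deprived and 7.01, 8.49 and 8.05 on the deprived arrays. Deprived array 1 lay within the non-deprived values, and the difference was 1.51 ± 0.63 (SE; unadjusted p = 0.0492 and adjusted p = 0.856 in limma). Alas1, the rate-limiting enzyme of haem synthesis, read 6.18, 4.81 and 4.94 on the non-deprived and 6.79, 5.88 and 6.60 on the deprived arrays. Its non-deprived array 1 was above deprived array 2, and it differed by 1.12 ± 0.45 (SE; unadjusted p = 0.0430, adjusted p = 0.856). Without non-deprived arrays 2 and 3 the difference was 0.61 for Pdxk and 0.25 for Alas1. Nr1i3, a xenobiotic receptor of the liver, and Cyp7a1, the bile acid synthesis enzyme of the liver, read at most 4.62 on all arrays, under the level of the silent receptors.

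**Figure D5:**
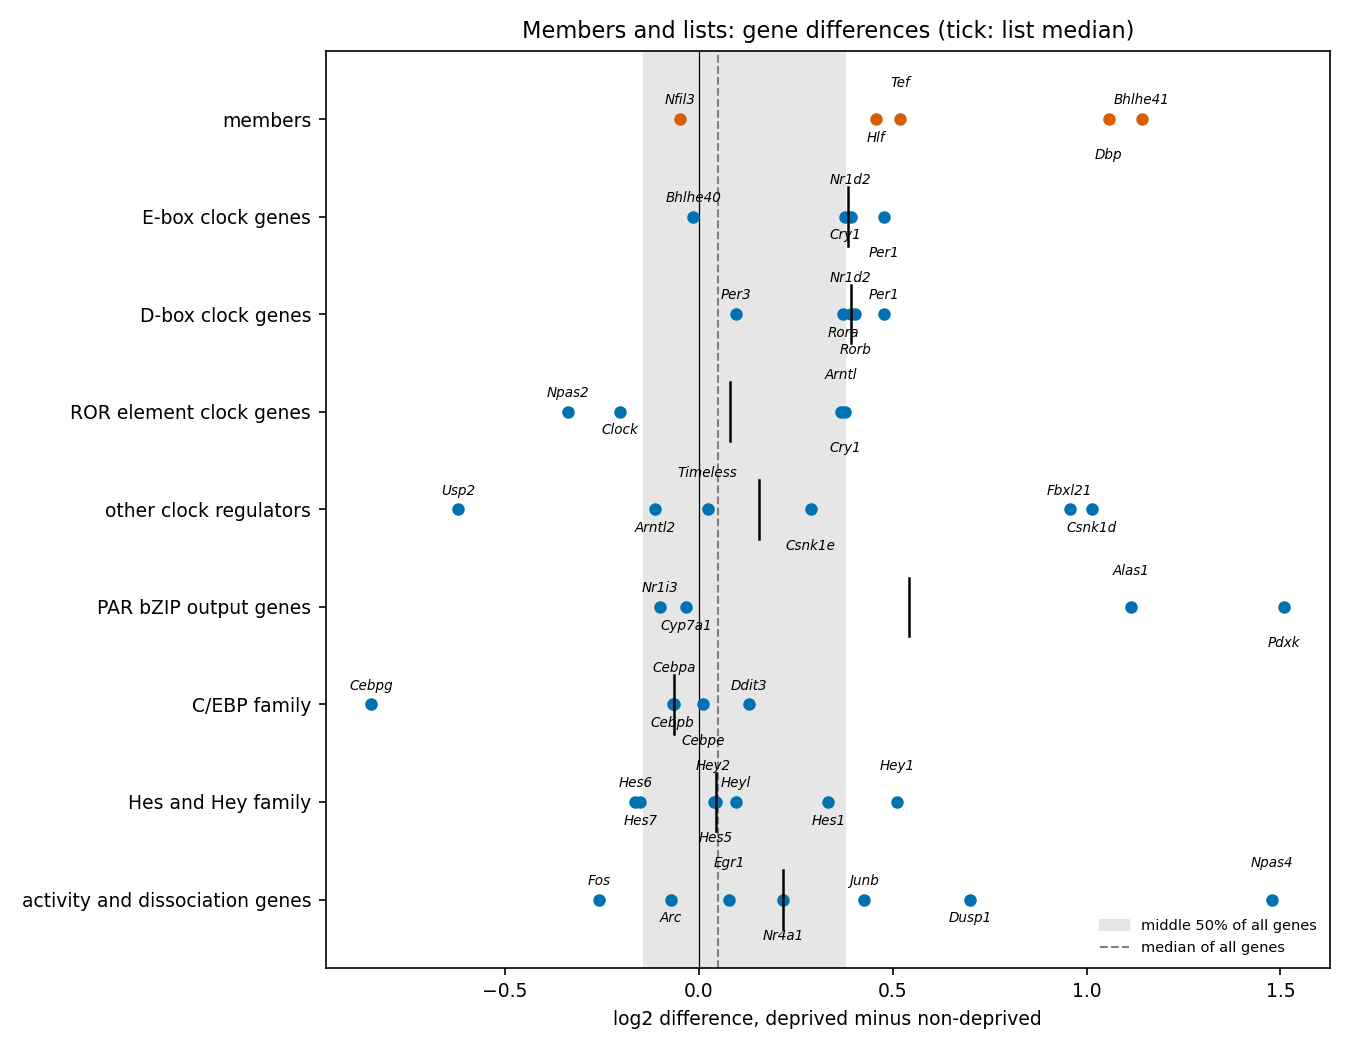
Log2 differences between the deprived and non-deprived arrays for the 5 members (orange) and for the genes of 8 lists (blue), with the list median as a black tick, the middle of the distribution of all genes in grey and its median dashed. The 5 D-box clock genes lie between 0.10 and 0.48, and Pdxk and Alas1 at 1.51 and 1.12.

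The medians of families related to the 5 genes by sequence were near that of all genes. The C/EBP family, bZIP proteins related to the PAR bZIP group, had 2 of 5 members higher and a median of -0.06, or 0 of 5 and -0.22 after either scaling, with Cebpa at -0.06 as deposited and Cebpb and Cebpe under the level of the silent receptors. Cebpg read 9.47 on non-deprived array 2 and 5.02 to 6.35 on the other 5, and its difference of -0.84 was 0.54 when that array was left out. Ddit3 differed by 0.13 ± 0.86 (SE). The Hes and Hey repressors, helix-loop-helix proteins related to BHLHE41, had 5 of 7 higher and a median of 0.04, which turned to -0.087 after quantile normalization and -0.11 after median centring. The values were 0.33 for Hes1, 0.51 for Hey1, -0.16 for Hes6 and -0.15 for Hes7. None of these genes was called by limma or was at an unadjusted p under 0.05.

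Genes that neuronal activity and tissue dissociation induce had 5 of 7 members higher (median 0.22, but -0.12 after quantile normalization and 0.06 after median centring), with 0 called. Npas4 differed by 1.48 ± 1.02, Dusp1 by 0.70 ± 0.54, Junb by 0.43 ± 0.55 and Fos by -0.26 ± 0.55 (SE each; adjusted p from 0.856 to 0.955 in limma). When 1 array was left out Npas4 ranged from 0.74 to 2.69, Dusp1 from 0.16 to 1.15 and Junb from 0.027 to 1.02, and Fos turned to 0.25 without non-deprived array 2 and to 0.05 without deprived array 1. Npas4 read 9.56 on non-deprived array 3, above all deprived arrays (8.17 to 9.13).

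The genes whose values ran most nearly parallel to each member were looked for among about 7318 other named genes at or above the median of mean expression, by Pearson r over the 6 arrays. With so few arrays and so many genes, values of r near 1 are found for many genes, and they describe these arrays only. For Dbp they were Rhbdd2 (r = 0.987), the cationic amino acid transporter Slc7a1 (0.978) and the vesicle tethering factor Vps54 (0.977), and Rhbdd2 was also among those of Tef (0.973). Rhbdd2 read 5.96 to 6.49 on the non-deprived and 7.92 to 8.67 on the deprived arrays. A gene picked for its likeness to Dbp shares the contrast that chose Dbp, so this separation is no further result. The same holds for the genes most like or opposite to the other members. The others of Tef were the helicase Ighmbp2 (0.980) and Zxdc (0.978). For Hlf they were the formin Inf2 (0.992), the G protein subunit Gnaz (0.986) and Spats2l (0.986). Bhlhe41 ran with the cytoskeletal adducin Add3 (0.984), the synaptic adhesion protein Lrfn2 (0.973) and Syap1 (0.970). The genes nearest to Nfil3 were Plk2 (0.983), a kinase that neuronal activity induces, the potassium channel Kcnk1 (0.974) and the small GTPase Rap2a (0.969). All 3 were highest on array 3 of both groups, at 10.07 and 9.82 for Plk2. The most opposite genes were Fgf4 for Dbp (-0.982), the histone methyltransferase Kmt5a for Tef (-0.985), the repressor Etv6 for Hlf (-0.989), Pibf1 for Nfil3 (-0.995) and the synuclein Sncg for Bhlhe41 (-0.981).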

How the data were processed

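RNA of hand-sorted neurons was amplified with T7 polymerase (2 rounds, input of 0.3 to 1 ng) and labelled with biotin, per the labels' protocols. The authors deposited 1 log2 value per array and transcript cluster (23331 clusters, 0.584 to 13.6). The log2 scale was read from the values, while how the authors corrected background, normalized and summarised is not given in the sources used here. In the submitters' processing notes a build, mm9, is named.

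Clusters were named through the platform annotation: 14995 had 1 symbol, and the highest-mean cluster per gene left 14859 genes. No further scaling or filter was applied. All genes were fitted with limma 3.58.1 in R 4.3.3 (lmFit, eBayes with a variance trend, group as the sole term, two-sided, Benjamini-Hochberg adjustment over all genes, threshold 0.05). Simulated data were first used to check that the fit returned the simulated differences on average. What size of difference this number of arrays can call is not given here. Other steps used Python 3.11.15. The members, lists and alternatives were chosen with earlier results of these data known. Lists of up to 5 measured genes are named in full, and of longer ones the 4 genes with the smallest p, and for each member the 3 genes most alike and the 1 most opposite. Alternatives were quantile normalization, median centring, a block for the replicate number, filters on mean expression (at its median and its 25th percentile), the mean over clusters, no variance trend, and arrays left out.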

Additional observations from a re-analysis of the deposited data

How the results depend on the processing

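Limma called 0 of the genes tested under each of the 14 alternatives (459 to 1850 genes at an unadjusted p under 0.05, smallest adjusted p from 0.142 to 0.987). With the replicate number as a block it called 0, with 745 genes at an unadjusted p under 0.05, and the members' differences are the same by construction. The labels do not say whether same-numbered arrays came from 1 animal. Deviations of same-numbered arrays from their group means correlated at -0.051, -0.018 and -0.003 over genes, which shows no pairing, while the Y-linked gene Eif2s3y read alike by number (6.76 and 6.88, 8.24 and 8.51, 2.81 and 2.33), so whether the numbers pair the arrays was not settled. The count of genes with deprived values entirely above the non-deprived ones was 589 after quantile normalization and 599 after median centring, and that of genes entirely below was 960 and 1171. With the filter at the 25th percentile, 841 of the 11144 genes kept lay entirely above and 347 entirely below. With that at the median, 689 of the 7431 genes kept lay above and 161 below, where 936 and 599 of all 14859 genes did. Quantile normalization gave 0.67 for Dbp and 0.12 for Tef, and median centring 0.36 for Tef. The sign of Dbp, Tef, Hlf and Bhlhe41 held under every alternative that kept them. The filter at the median removed Bhlhe41 as too low. Among the alternatives only quantile normalization and median centring could have turned the sign of these genes. Leaving out arrays cannot turn the sign of a gene whose groups lie apart. The rest leave the members' differences as they are. The sign of Nfil3 turned under 4 alternatives, all of which leave out arrays. When 1 array was left out in turn, Dbp ranged from 0.89 to 1.14, Tef from 0.48 to 0.58, Hlf from 0.33 to 0.53, Bhlhe41 from 0.71 to 1.53 and Nfil3 from -0.38 to 0.35. The median of the PAR bZIP output genes was 1.31 under both filters, which remove its low members, and 0.17 without non-deprived arrays 2 and 3. That of the Hes and Hey genes was -0.087 after quantile normalization, -0.11 after median centring and 0.14 without those arrays. When 1 array was left out the list medians ranged from 0.17 to 0.52 for E-box, 0.18 to 0.51 for D-box, -0.17 to 0.15 for ROR element and -0.033 to 0.50 for other clock genes, from 0.38 to 0.79 for the output genes, from -0.27 to 0.011 for C/EBP, from -0.021 to 0.089 for Hes and Hey and from 0.0267 to 0.594 for the activity genes. Where no cause is given, the cause was not tested. Of the values for list genes named singly, 413 moved by less than the SD within groups and 11 by more. For the members' differences, the list medians and the gene counts, 189 stayed within their limit (that SD, or 1.5 times for counts) and 16 did not. The block, the variance trend and the filters leave the difference of a gene as it is. The mean over clusters does so for the members, which have 1 cluster each. These counts therefore do not measure stability. No detection measure was used here, so values as low as those of Bhlhe41 have no known floor.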
